A study of Homo sapiens with 39 samples.

Results

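The inhibitor of DNA binding genes ID1, ID2, ID3 and ID4 and 5 genes of bone morphogenetic protein (BMP) signalling, namely BMP2, BMP4, BMP7, SMAD6 and BAMBI, were followed across RNA-seq libraries of A375 and WM115, both established human melanoma cell lines. These 9 genes, of 60671 in the deposited gene table, were picked by name after ID3 had been seen to be higher in both WM115 clones that lack region R4 and not in A375. Their values in the WM115 R4 clones and in the A375 clones, and those of ID3 throughout, are therefore given as a description with no p-value. Tests of the other 8 are given for the remaining WM115 clones and for the difference between the WT lines. These contrasts are not the ones the choice was made on, but they use the same WT libraries, so they are not independent of it. All 9 genes passed the filter on low values in both lines.

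A375 gave 4 wild-type (WT) libraries, 3 of R1-deleted clone 1.1, 4 of R1-deleted clone 1.2, 4 of R4-deleted clone 4.1 and 3 of R4-deleted clone 4.2. WM115 gave 4 WT libraries, 5 of R1-deleted clone 1.1, 3 of R1-deleted clone 1.2, 3 of R4-deleted clone 4.1 and 3 of R4-deleted clone 4.2. A further 3 WM115 libraries came from clone 1.3, whose title points to R1 and whose genotype label names R4, so it was kept apart. R1 and R4 are parts of an enhancer of SOX10, the transcription factor that sets neural crest and melanocyte identity. No treatment is given for any group, and nothing in the labels says whether libraries of a clone came from separate cultures. Each clone is 1 edited line. A p-value rests on the spread between libraries within groups, pooled over all groups of the fit, and this spread may be technical. It compares a clone with WT rather than a deletion with its absence.

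BMP ligands are secreted dimers that bring type I and type II receptor kinases together. The receptors phosphorylate SMAD1, SMAD5 and SMAD9, which bind SMAD4, enter the nucleus and switch on target genes, of which the ID genes are the best known. ID proteins have a helix-loop-helix domain but no basic DNA-binding region, so they hold E proteins such as TCF3, TCF4 and TCF12 in dimers that cannot bind DNA. SMAD6, an inhibitory SMAD, and BAMBI, a receptor-like membrane protein without a kinase domain, are targets that feed back on the pathway. In the melanocyte lineage ID proteins are known for holding back differentiation and cell-cycle exit.

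Most of the comparisons turn on ID1 and ID3, so sequence next to their starts is shown, from RefSeq (GRCh38.p14). ID1 (ENSG00000125968) lies on chromosome 20 from 31605283 to 31606515 on the plus strand in GENCODE 29 (GRCh38). The 244 bases upstream of that start, chr20:31605039-31605282, belong to its promoter and are printed on the plus strand with the 2 overlapping matches to TATAAA, 1 on each strand, in capitals. ID3 (ENSG00000117318) lies on chromosome 1 from 23557918 to 23559794 on the minus strand, and GENCODE 29 extends its first exon beyond the RefSeq start. Of ID3 only 30 bases of the minus strand are shown, chr1:23559631-23559660, which lie in the 5′ untranslated part of that longer exon and hold in capitals its single match to GTCTG, a core of SMAD sites, read from the opposite strand.
ID1: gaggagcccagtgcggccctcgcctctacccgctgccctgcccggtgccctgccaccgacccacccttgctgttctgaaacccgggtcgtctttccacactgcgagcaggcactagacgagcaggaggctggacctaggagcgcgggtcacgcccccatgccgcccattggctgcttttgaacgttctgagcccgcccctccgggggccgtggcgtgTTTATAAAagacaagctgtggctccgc
ID3: ggtcttcggcgtCAGACcagccggaggaag
The 250 bases before each RefSeq start were searched on both strands for 5 motifs, with overlapping matches counted: GGCGCC and GTCTG, both cores of SMAD sites, ACAAAG, a core of SOX sites, the E-box CACGTG, and TATAAA, the TATA box. RefSeq windows were found for 7 of the 9 members, all but BMP2 and BMP7. Of all 35116 windows, 16.4% held GGCGCC, 38.0% held GTCTG, 13.7% held ACAAAG, 6.3% held CACGTG and 10.7% held TATAAA. The ID1 window held only the TATAAA matches, the ID3 window 1 GTCTG, and the ID4 window 1 GTCTG and 1 TATAAA. The BAMBI window held 3 GGCGCC and 2 GTCTG, and those of ID2 and SMAD6 held none of the 5. BMP4 has 3 windows, of which 1 held GTCTG and CACGTG once each, 1 held GGCGCC and GTCTG once each and 1 held no match.

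Levels are in TPM, a unit that corrects for transcript length and has the same total in every library, so genes can be set side by side, while read depth is unknown. Between 14084 and 16140 genes reached 1 TPM in a library. SOX10 was listed at 381 to 876 TPM in A375 and at 272 to 553 TPM in 20 of 21 WM115 libraries, with 9.56 TPM in library 3 of WM115 clone 1.2. Library 3 of WM115 clone 1.3 resembled the WM115 WT libraries (Pearson r 0.9814 with their mean over genes) more than its own clone (0.9655). In all, 12 libraries were closer to another group of their line than to their own, among them every library of A375 clone 1.1. Libraries 1 and 2 of WM115 clone 1.2 were closest to clone 1.3. Library 2 of clone 1.3 was closest to clone 1.2 (0.9857, against 0.9688 with its own). Library 3 of WM115 clone 1.2 and library 3 of clone 1.3 are called the 2 libraries that stand apart. Members' results that change without these 2, and counts over the pathway list that do, are given with and without them. Of the 8 melanocytic markers, whose summed level was 405 to 967 TPM in A375, TYR was listed at 0 in 17 of 18 A375 libraries and MLANA never passed 0.976 TPM, while SOX10 was high. In WM115 the same sum was 29.4 to 2890 TPM. Of the markers of other cell types, the epithelial genes CDH1 and EPCAM and the blood genes CD3E and PTPRC stayed at or under 0.483 TPM in both lines. Others did not: the keratin gene KRT8 was at 18.1 to 107 TPM in A375 and 8.27 to 26.2 TPM in WM115, KRT14 reached 30.4 TPM and LYZ 12.3 TPM in A375, and the endothelial gene PECAM1 reached 12.0 TPM in WM115. COL1A2, a fibroblast collagen gene, was at 365 to 857 TPM in WM115, where the other fibroblast collagen genes COL1A1 and COL3A1 stayed at or under 3.67 TPM.

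Of the 9 members, ID1 and ID3 differed most between the 2 wild-type lines. Both genes stood far higher in A375 than in WM115, whereas ID4 and BMP7 were higher in WM115. Differences below are on the log2(TPM + 1) scale, which understates the change of low genes, with the standard error (SE) from limma. A gene was called when its Benjamini-Hochberg adjusted p over all genes tested was under 0.05 and its log2 difference was at least 1. For ID3, and for members in contrasts that the choice used, being past both thresholds only says that these limits were met. It is no test of them.

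In bulk RNA, fewer cells that express a gene and less of its RNA per cell cannot be told apart, here and below. Among the ligands, BMP2 (chromosome 20, 6767664 to 6780280, plus strand) had 6.30, 7.53, 5.24 and 4.23 TPM in A375 WT and 1.24, 0.606, 0.685 and 0.101 TPM in WM115 WT. The libraries of the lines did not overlap, and BMP2 was higher in A375 by 2.06 (SE 0.24, limma adjusted p = 0.0001005). BMP7 (chromosome 20, 57168748 to 57266629, minus strand) had 5.98, 7.45, 2.78 and 3.28 TPM in A375 WT and 29.2, 29.2, 25.8 and 13.8 TPM in WM115 WT. All 4 A375 libraries were below all 4 WM115 libraries, and the log2 difference was -2.14 (SE 0.31, adjusted p = 0.000401). BMP4 (chromosome 14, 53949736 to 53958761, minus strand) had 2.81, 3.29, 3.49 and 2.23 TPM in A375 WT against 2.02, 1.68, 1.69 and 1.69 TPM in WM115 WT. The BMP4 ranges were apart, but the log2 difference of 0.50 (SE 0.16, adjusted p = 0.0234) was under 1.

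The inhibitors did not pass the test between the 2 lines. BAMBI (chromosome 10, 28677342 to 28682939, plus strand) had 58.7 to 82.4 TPM in A375 WT and 65.0 to 86.3 TPM in WM115 WT, with a log2 difference of -0.23 (SE 0.15, adjusted p = 0.236). SMAD6 (chromosome 15, 66702228 to 66782848, plus strand) had 5.72 to 14.4 TPM against 3.35 to 8.17 TPM, with a log2 difference of 0.75 (SE 0.31, adjusted p = 0.0696). Both genes overlapped between the lines.

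Of the ID genes, ID1 had 271, 192, 323 and 205 TPM in A375 WT and 6.94, 4.06, 7.48 and 1.99 TPM in WM115 WT. ID3 had 215, 164, 231 and 156 TPM in A375 WT and 6.97, 4.03, 4.25 and 3.65 TPM in WM115 WT. Every A375 library was above every WM115 library for both genes, with means 48.4 and 40.5 times as high. The log2 differences were 5.43 for ID1 (SE 0.32, adjusted p = 1.16e-06) and 5.08 for ID3 (SE 0.21). ID4 (chromosome 6, 19837386 to 19840684, plus strand) went the other way, with 2.13, 2.32, 2.95 and 1.56 TPM in A375 WT and 16.8, 19.2, 10.7 and 12.8 TPM in WM115 WT. Its log2 difference was -2.28 (SE 0.21, adjusted p = 2.40e-05), where the median over tested genes of chromosome 6 was -0.62. ID2 (chromosome 2, 8678845 to 8684453, plus strand) did not separate the lines, at 5.09, 5.34, 5.88 and 7.84 TPM in A375 WT and 5.38, 5.74, 5.10 and 3.06 TPM in WM115 WT (adjusted p = 0.274). In this comparison 5 of the 9 members passed both thresholds, ID3 among them, where 22.7% of the 16126 genes tested were: 3 higher in A375 (9.55% of genes) and 2 lower (13.1%). Every A375 library was above every WM115 library for 4 members (19.5% of genes) and below for 2 (24.4%), and the members' median log2 difference was 0.50 against -0.04 over all genes. With 1 line on each side, anything else that differed between the lines cannot be told apart from the line.

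**Figure D1:**
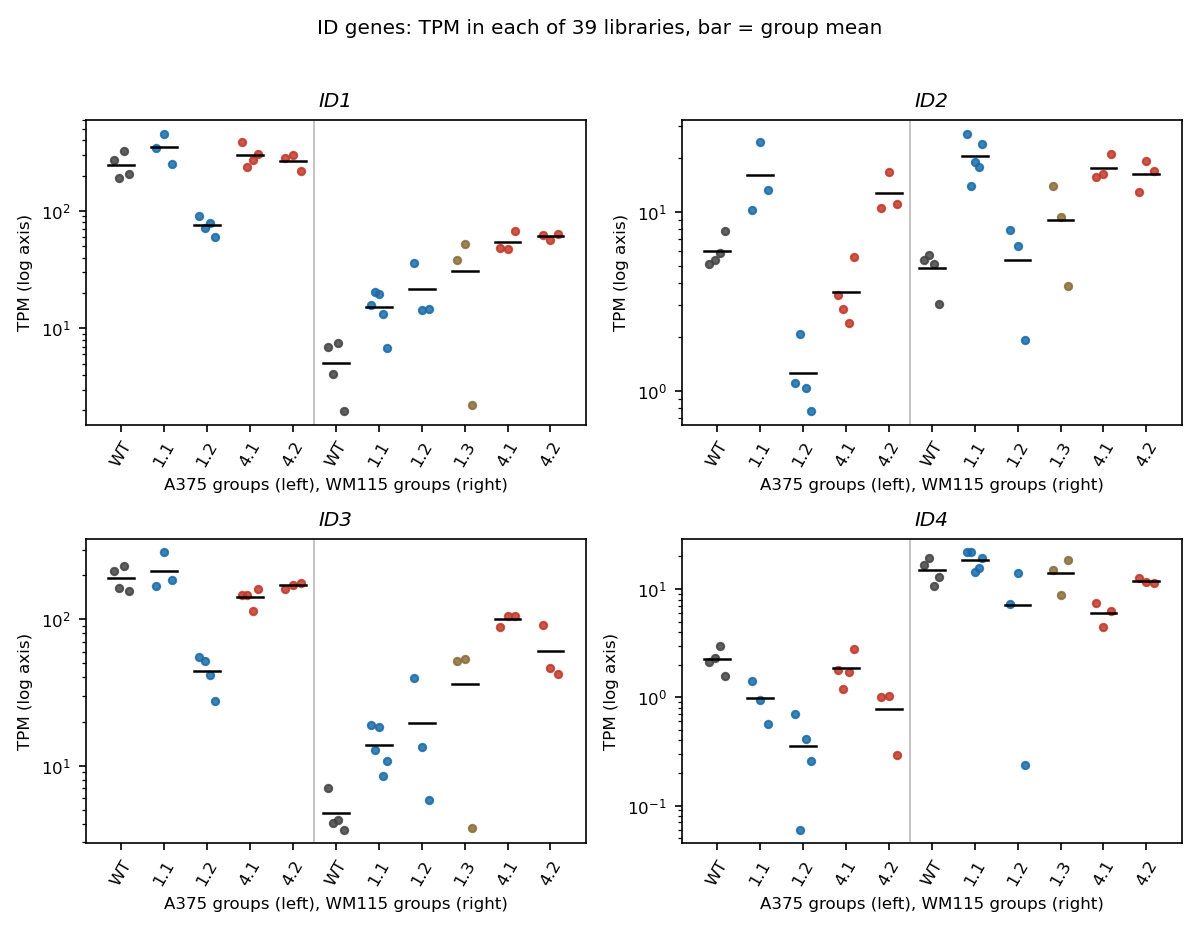
ID1, ID2, ID3 and ID4 in each of the 39 libraries, in TPM on a log axis, by line and clone (points are libraries, bars are group means, dark grey WT, blue clones 1.1 and 1.2, brown clone 1.3, red clones 4.1 and 4.2). ID1 and ID3 sit far higher in A375 than in WM115 WT, and within WM115 the red points of clones 4.1 and 4.2 lie above the dark grey WT points for ID1, ID2 and ID3.

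In the WM115 R4 clones, ID1, ID2 and ID3 were all above WT in every library, and ID3, the gene that chose the set, was highest in clone 4.1. ID4 stayed level or was lower, and among the ligands BMP2 stood out in clone 4.1. ID3 had 88.9, 105 and 106 TPM in clone 4.1 and 91.9, 46.3 and 42.6 TPM in clone 4.2. Its lowest R4 library was thus far above its highest WT library at 6.97 TPM, and the log2 differences were 4.17 (SE 0.65) and 3.37 (SE 0.65). ID1 had 48.5, 47.2 and 67.5 TPM in clone 4.1 and 62.8, 56.7 and 63.6 TPM in clone 4.2. None of these overlapped WT, and the log2 differences were 3.28 and 3.46 (SE 0.66 each). These levels of ID1 were still below those of every A375 WT library.

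ID2 had 15.7, 16.2 and 20.9 TPM in clone 4.1 and 12.8, 19.2 and 17.0 TPM in clone 4.2, where WT had 3.06 to 5.74 TPM. Its ranges were apart from WT, with log2 differences of 1.69 and 1.58 (SE 0.36 each). ID4 had 7.49, 4.42 and 6.28 TPM in clone 4.1, all below the lowest WT library at 10.7 TPM. In clone 4.2 ID4 had 12.6, 11.7 and 11.3 TPM and overlapped WT, and the log2 differences were -1.16 and -0.27 (SE 0.52 each). The median over all tested genes of chromosome 6, where ID4 lies, was -0.31 in clone 4.1 and -0.25 in clone 4.2, against -0.10 over all genes in both, and its part in the ID4 values was not tested.

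BMP2 had 8.99, 15.2 and 9.04 TPM in clone 4.1 and 2.18, 0.727 and 3.82 TPM in clone 4.2. Clone 4.1 lay above all WT libraries and above most A375 libraries, while clone 4.2 overlapped WT, with log2 differences of 2.87 and 0.89 (SE 0.38 each). BMP4 had 2.73, 2.5 and 2.77 TPM in clone 4.1 and 2.81, 3.46 and 3 TPM in clone 4.2, above WT in every library by log2 0.41 and 0.56. BMP7 had 18.4, 19.9 and 17.0 TPM in clone 4.1 and 15.1, 17.8 and 17.3 TPM in clone 4.2, within the WT range of 13.8 to 29.2 TPM.

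BAMBI had 125, 118 and 118 TPM in clone 4.1, all above the highest WT library at 86.3 TPM. In clone 4.2 it had 117, 81.1 and 134 TPM, and 1 of these 3 libraries lay within the WT range. The BAMBI log2 differences were 0.59 and 0.44 (SE 0.23 each). SMAD6 had 4.40, 5.23 and 6.54 TPM in clone 4.1 and 3.91, 5.50 and 4.99 TPM in clone 4.2 and lay within the WT range of 3.35 to 8.17 TPM throughout.

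Past both thresholds, all of them higher, were 4 members in clone 4.1 (ID1, ID2, ID3 and BMP2), beside 7.57% of the 16997 genes tested and 3.20% that were higher. In clone 4.2 they were 3 (ID1, ID2 and ID3), beside 6.60% and 2.52%. In clone 4.1 all libraries were above WT for 6 members (13.8% of genes) and below for 1 (23.1%), and in clone 4.2 above for 4 (11.5%). Nothing is read from these counts, since the choice of members used these contrasts. The members' median log2 difference was 0.59 in clone 4.1 and 0.56 in clone 4.2, where all genes had -0.10 in both. With median-of-ratios scaling the median of all genes moved from -0.10 to 0 in clone 4.1 and from -0.12 to -0.02 in clone 1.1, and the share of higher calls from 42.3% to 55.6% in clone 4.1 and from 38.2% to 49.4% in clone 4.2, with ID1, ID2 and ID3 still past the thresholds in both.

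Markers moved in the same 2 clones. Of the 8 melanocytic markers, 6 were called lower in clone 4.1 and 5 in clone 4.2, with DCT at -6.50 and -6.89 (limma adjusted p = 0.00103 and 0.000959) and MITF at -3.40 and -2.80 (adjusted p = 0.000793 and 0.00412), while SOX10 was not called in either. Their summed level was 791 to 1138 TPM in clone 4.1 and 661 to 1065 TPM in clone 4.2, against 1044 to 2890 TPM in WT. The 5 epithelial markers summed to 19.6 to 22.8 TPM and 15.6 to 17.2 TPM, above the 12.1 to 14.7 TPM of WT, with KRT14 called higher in both clones. The 5 blood and endothelial markers summed to 3.96 to 5.50 TPM and 3.40 to 7.88 TPM against 0.334 to 3.65 TPM, with PECAM1 called higher in both. The sum of the 7 fibroblast markers overlapped WT in both clones, with DCN called higher in clone 4.1 and LUM lower in clone 4.2. Some of these changes were also called in the R1 clones. PECAM1 was called higher in clone 1.2 (1.64, adjusted p = 0.0115), and DCT, MITF and MLANA lower. LUM was called lower in clones 1.1 and 1.2 (-2.34 and -2.02, adjusted p = 0.00146 and 0.0110), and TYR in clone 1.1. The part of these markers in the ID values was not tested.

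**Figure D2:**
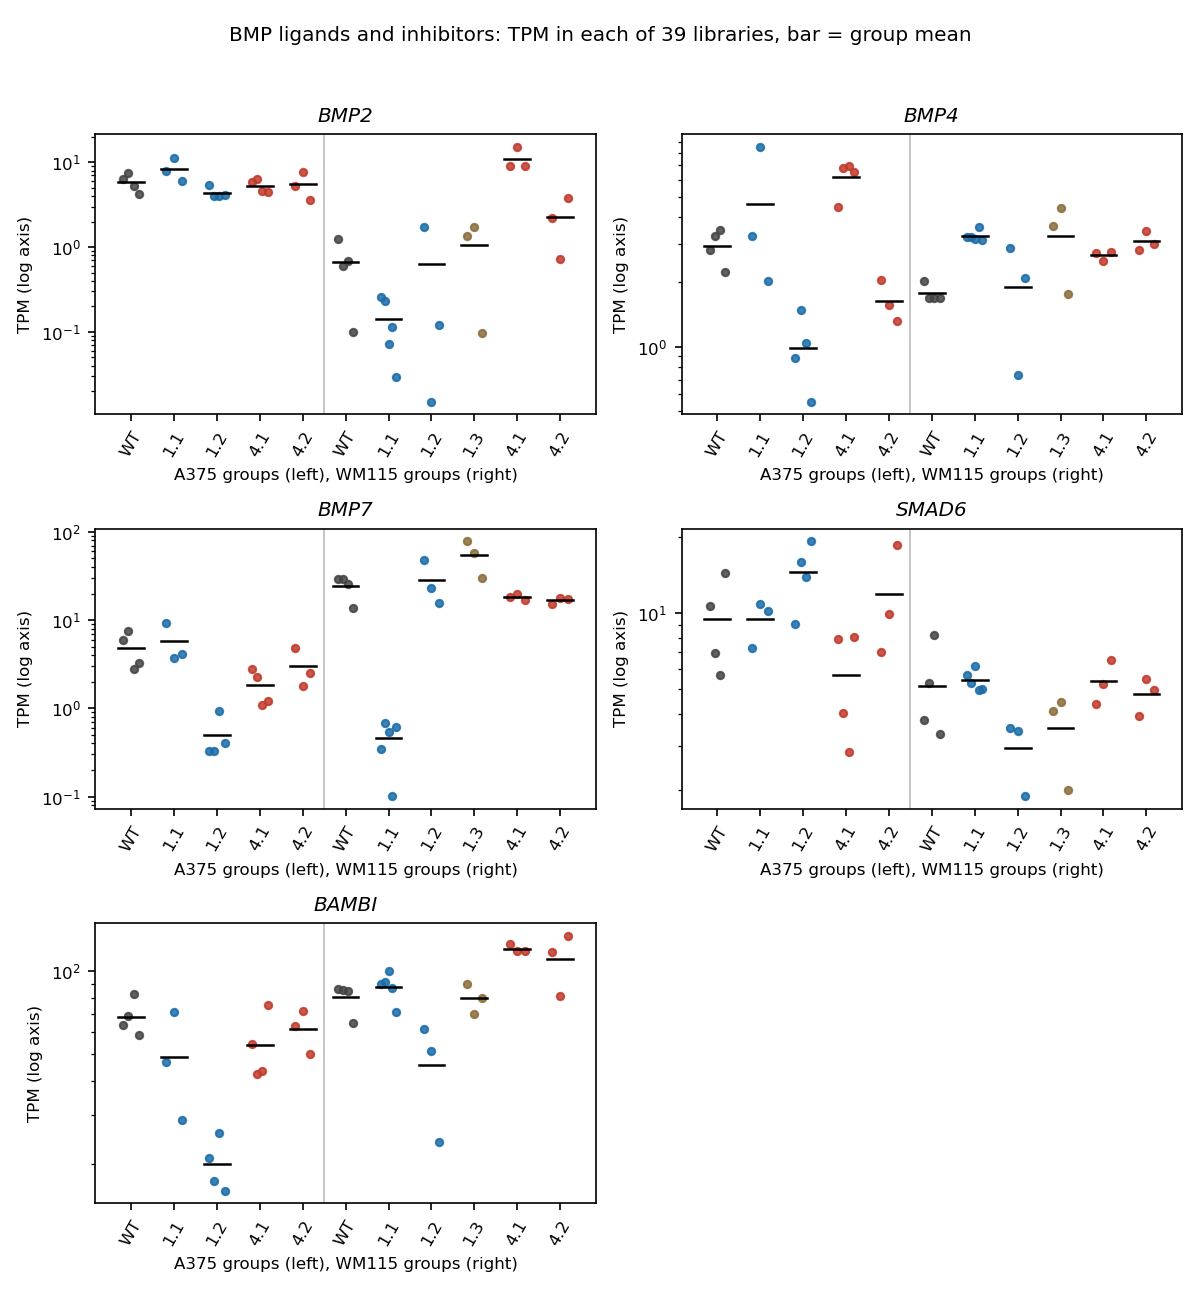
BMP2, BMP4, BMP7, SMAD6 and BAMBI in each of the 39 libraries, in TPM on a log axis, by line and clone (points are libraries, bars are group means, colours as for the ID genes). BMP7 in WM115 clone 1.1 (0.101 to 0.684 TPM) lies far below the other WM115 groups, and BMP2 in WM115 clone 4.1 (8.99 to 15.2 TPM) lies above them.

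The WM115 R1 clones share their WT libraries with the R4 clones, so a higher value than WT in both is no independent sign. Clone 1.1 showed the largest fall of any member in the series. BMP7, a ligand, had 0.348, 0.684, 0.535, 0.101 and 0.616 TPM there, where WT had 13.8 to 29.2 TPM. All 5 libraries were below all 4 WT libraries, and BMP7 fell by 4.09 on the log2 scale (SE 0.29, limma adjusted p = 2.4e-08). The median log2 difference of the 461 tested genes of chromosome 20, which carries BMP7, was -0.14 against -0.12 over all genes.

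The other ligands were not called in clone 1.1. BMP4 had 3.23, 3.24, 3.16, 3.61 and 3.14 TPM, above WT in every library, by a log2 difference of 0.63 (SE 0.20, adjusted p = 0.0296) that is under the minimum size. BMP2 had 0.261, 0.229, 0.072, 0.114 and 0.029 TPM and overlapped WT (log2 difference -0.50, SE 0.33, adjusted p = 0.301), with a mean of 0.141 TPM against 0.659 TPM, a level at which the added 1 shrinks differences. SMAD6 had 4.96 to 6.18 TPM (adjusted p = 0.724) and BAMBI 71.0 to 100 TPM (adjusted p = 0.693), and both overlapped WT.

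ID2 rose in clone 1.1, with 27.3, 13.9, 19.0, 17.8 and 23.9 TPM against at most 5.74 TPM in WT. The difference was 1.87 (SE 0.32, adjusted p = 0.000496), higher than WT in 5 of 5 libraries. ID1 had 15.7, 20.3, 19.8, 13.2 and 6.78 TPM, of which 4 of 5 were above the highest WT library, and its difference of 1.43 did not pass (SE 0.58, adjusted p = 0.0853). ID3 had 19.0, 12.7, 18.5, 8.45 and 10.7 TPM, all above WT, and its difference of 1.35 (SE 0.57) was not past both thresholds. When the 2 libraries named above as standing apart were left out of the fit, which lowers the spread shared by all WM115 groups, ID1 passed at the same difference (adjusted p = 0.00424), and ID3 was past both thresholds. ID4 had 14.4 to 21.8 TPM and overlapped WT (adjusted p = 0.660). In clone 1.1, 2 of the 9 members were called, where 4.88% of genes were: ID2 higher (1.22% of genes) and BMP7 lower (3.66%). All libraries were above WT for 3 members (7.05% of genes) and below for 1 (16.5%), and the median member difference was 0.32 against -0.12 over all genes. With median-of-ratios scaling 38% of the calls over all genes were higher in this clone, against 25% without it.

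In clone 1.2 ID1 had 36.3, 14.3 and 14.6 TPM, all above WT, and rose by 1.88 (SE 0.66, adjusted p = 0.0483). That call did not hold when library 1, 2 or 3 of the clone, or WT library 1, 2 or 4, was left out (adjusted p between 0.0541 and 0.159). ID4 had 7.25, 14 and 0.236 TPM and fell by 1.54 (SE 0.52, adjusted p = 0.0406), although its ranges overlapped WT. The lowest value belongs to library 3, the library with SOX10 at 9.56 TPM, and without it the ID4 difference was -0.48 (adjusted p = 0.340). Without WT library 1, 2 or 4 the ID4 call was lost as well (adjusted p = 0.0839, 0.0969 and 0.0607).

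ID3 had 39.6, 13.5 and 5.82 TPM in clone 1.2, of which the lowest lies within the WT range, and its difference of 1.51 (SE 0.65) was not past both thresholds. Without both libraries that stand apart the ID3 difference was 2.12 and past both. ID2 had 7.85, 6.44 and 1.92 TPM and straddled WT (adjusted p = 0.983). BAMBI had 61.5, 51.2 and 24.0 TPM, all below WT, with a difference of -0.90 (SE 0.23, adjusted p = 0.0115) that is under the minimum size. It passed that size without library 1 (-1.16, adjusted p = 0.00312) or library 2 (-1.03, adjusted p = 0.00954).

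BMP7 had 48.0, 23.0 and 15.6 TPM in clone 1.2 and overlapped WT (adjusted p = 0.798). Its difference from clone 1.1, which is labelled with the same deletion, was not tested. BMP2 had 1.74, 0.015 and 0.122 TPM, BMP4 2.87, 0.736 and 2.10 TPM and SMAD6 3.52, 3.43 and 1.90 TPM. Each of these 3 overlapped WT, with adjusted p of 0.823, 0.983 and 0.0830. In clone 1.2, 2 of 9 members were called, where 7.61% of genes were: ID1 higher (4.49% of genes) and ID4 lower (3.11%). All libraries were above WT for 1 member (15.2% of genes) and below for 1 (13.2%), and the median member difference was -0.01 against -0.02 over all genes.

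No member was called in clone 1.3, where 0.618% of genes were. ID3 is left out of the tests here as elsewhere. Of the other members, ID1, BMP4 and BMP7 had an unadjusted limma p under 0.05 (0.0168, 0.0200 and 0.00367), where 13% of genes had one. Its libraries disagreed. ID1 had 38.1, 51.9 and 2.24 TPM and ID3 had 52.2, 53.1 and 3.71 TPM, so 2 libraries were near the R4 clones and library 3, the one that resembled WT, was within the WT range. Their differences were 1.74 for ID1 (SE 0.66, adjusted p = 0.265) and 2.09 for ID3 (SE 0.65). Without library 3 alone they were 3.01 for ID1 (adjusted p = 0.000853), which passed, and 3.26 for ID3, past both thresholds. The clone then has 2 libraries, and the spread used is the one shared by all WM115 groups.

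BMP7 had 78.2, 57.8 and 29.7 TPM in clone 1.3, above WT in 3 of 3 libraries, with a difference of 1.09 (SE 0.33, adjusted p = 0.143). It passed without library 3 (1.48, adjusted p = 0.0182). ID2 had 13.9, 9.35 and 3.84 TPM (difference 0.67, adjusted p = 0.449) and passed only without both libraries that stand apart (1.12, adjusted p = 0.0157). ID4 had 14.9, 8.79 and 18.4 TPM, BMP2 1.37, 1.72 and 0.096 TPM and BMP4 3.66, 4.42 and 1.76 TPM. SMAD6 had 4.13, 4.47 and 2 TPM and BAMBI 89.6, 70.0 and 79.8 TPM. All 5 overlapped WT, with adjusted p from 0.280 to 0.995. Of the members BMP7 alone was above WT in every library, as were 4.42% of genes. The median member difference was 0.57 against -0.03 over all genes.

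Over the 17 WM115 clone libraries, 15 exceeded the highest WT library for ID1, 15 for ID2, 15 for ID3 and 15 for BMP4. Of all 16997 genes tested, 2.3% had 15 or more libraries above WT, and 4.3% had 15 or more below the lowest WT library. BAMBI had 10 above and 3 below, BMP2 8 above and 4 below, and BMP7 4 above and 5 below. ID4 had 2 above and 6 below, and SMAD6 0 above and 2 below. These counts are a description from which nothing is read. They include ID3 and the R4 clones, which the choice used, and pool libraries of the same clone. Other measures moved with the first 4 counts. Genes of ribosomal proteins took 11.1% to 12.8% of the TPM in the 4 WT libraries and 10.6% in library 3 of clone 1.3, where ID1 and ID3 were low, and 15.1% to 17.4% in the other 16 clone libraries. Mitochondrially encoded genes took 13.7% to 15.6% in WT, 19.4% in that library and 4.71% to 14.4% in the others. The part of these shares in the ID differences was not tested.

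**Figure D3:**
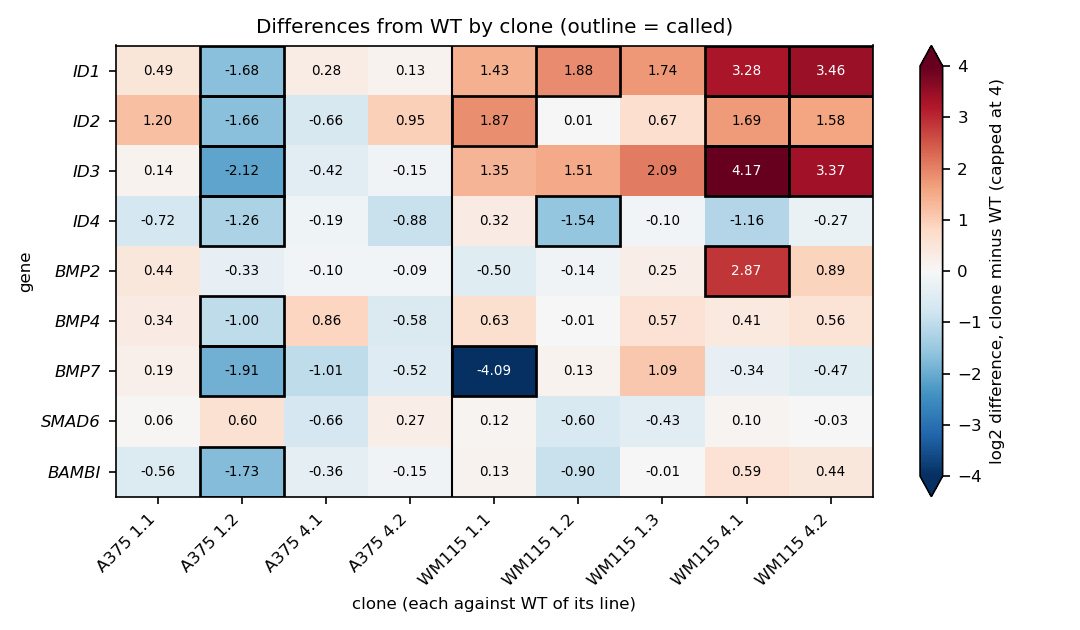
Log2 differences of the 9 members from WT of the same line, in columns by clone, on the log2(TPM + 1) scale (red higher, blue lower, colour capped at 4, outline past both thresholds). A375 clone 1.2 is blue in 7 outlined cells, and ID1 and ID3 are red in all 5 WM115 clones, outlined for both in clones 4.1 and 4.2. Outlines are no test in the A375 columns, in WM115 clones 4.1 and 4.2 and for ID3.

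In A375, 7 of the 9 members were below WT in every library of R1 clone 1.2, all 4 ID genes among them. The same 7 were past both thresholds, and no member was in clones 1.1, 4.1 or 4.2 in the main, unpaired fit. Of 13 alternative settings for clone 1.2, BMP4 was past both in 5 and the rest of the 7 in all 13. For clone 1.1, ID2 was past both in 3 of 12 settings. This is a description and no test, since the choice used these contrasts. ID1 had 91.2, 71.6, 79.3 and 60.6 TPM in clone 1.2, all below the lowest WT library at 192 TPM, with a log2 difference of -1.68 (SE 0.21). ID3 had 54.9, 51.5, 41.9 and 27.7 TPM, all below the lowest WT library at 156 TPM (-2.12, SE 0.21). ID2 had 1.11, 2.07, 1.04 and 0.772 TPM (-1.66, SE 0.26) and ID4 had 0.704, 0.060, 0.408 and 0.256 TPM (-1.26, SE 0.22). All 4 ID genes were thus below WT in every library of this clone.

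The ligand BMP7 had 0.327, 0.327, 0.929 and 0.401 TPM in A375 clone 1.2, below its lowest WT library at 2.78 TPM (-1.91, SE 0.32). BMP4 had 0.881, 1.48, 1.04 and 0.553 TPM, also below WT throughout, with a difference of -1.0 (SE 0.27) that lies at the minimum size. BMP2 had 5.36, 4.03, 4 and 4.08 TPM and overlapped WT (-0.33, SE 0.22). BAMBI had 20.9, 17.3, 25.9 and 16.0 TPM, below its lowest WT library at 58.7 TPM (-1.73, SE 0.24), and SMAD6 had 9.03, 16.0, 13.9 and 19.2 TPM and overlapped WT (0.60, SE 0.34). SOX10 had 406 to 473 TPM in this clone, below the 630 to 706 TPM of WT, and its part in these values was not tested. Over all genes 4.01% were called in this clone, 1.44% lower, and 5.33% were below WT in every library, as were these 7 members, and nothing is read from these counts either, since the choice used this contrast. The 7 fibroblast markers summed to 15.9 to 21.8 TPM there against 6.85 to 14.3 TPM in WT, with LUM and COL1A1 called higher, and the melanocytic markers to 448 to 522 TPM against 687 to 813 TPM, and their part was not tested. The median difference over all genes was 0.07 against -1.66 over the members.

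In the other A375 clones ID1 and ID3 overlapped WT. ID1 had 343, 457 and 252 TPM in clone 1.1, 386, 238, 271 and 305 TPM in clone 4.1, and 284, 299 and 218 TPM in clone 4.2. ID3 had 169, 287 and 186 TPM in clone 1.1, 146, 146, 115 and 162 TPM in clone 4.1, and 162, 172 and 177 TPM in clone 4.2. The log2 differences of ID3 were 0.14, -0.42 and -0.15, and those of ID1 were 0.49, 0.28 and 0.13. The background was 0.731%, 0.653% and 0.473% of genes called in clones 1.1, 4.1 and 4.2.

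Some other members left the WT range in those clones without passing the thresholds. Clone 1.1 had 1 member above WT in every library (2.70% of genes) and 1 below (4.71%), clone 4.1 had 1 above (3.86%), and clone 4.2 had 1 above (3.49%) and 2 below (3.03%). ID2 had 10.3, 24.6 and 13.2 TPM in clone 1.1 and 10.5, 16.6 and 11 TPM in clone 4.2, above the highest WT library at 7.84 TPM (1.2 and 0.95). In clone 4.1 ID2 had 3.44, 2.86, 2.37 and 5.58 TPM (-0.66). ID4 had 1.43, 0.945 and 0.564 TPM in clone 1.1 and 1.01, 1.02 and 0.293 TPM in clone 4.2, below the lowest WT library at 1.56 TPM (-0.72 and -0.88). BMP4 was above WT in clone 4.1, with 4.49, 6.78, 6.96 and 6.54 TPM (0.86), and below it in clone 4.2, with 2.03, 1.56 and 1.32 TPM (-0.58). BMP7 had 2.83, 2.27, 1.09 and 1.22 TPM in clone 4.1 (-1.01) and overlapped WT. For clone 4.1, whose replicate numbers pair with those of WT, a fit with the replicate number as a block took BMP7 past both thresholds at the same difference and raised the genes called from 109 to 246, with no other member past them.

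The order of the group levels differed between the members. For ID1 the 4 highest groups were A375 clones 1.1, 4.1, 4.2 and WT, with 351, 300, 267 and 248 TPM on average, each within 1 SD of its neighbour. A375 clone 1.2 followed with 75.7 ± 12.9 TPM (SD, n = 4), apart from WT and overlapping WM115 clone 4.2 with 61.0 ± 3.74 TPM (SD, n = 3). For ID3 WM115 clone 4.1 (99.99 ± 9.56 TPM, SD, n = 3) stood between A375 clone 4.1 (142 ± 19.8 TPM, SD, n = 4) and WM115 clone 4.2 (60.2 ± 27.5 TPM, SD, n = 3). ID4 ran the opposite way, with all 6 WM115 groups above all 5 A375 groups by their means. BMP7 was highest in WM115 clone 1.3 (55.2 ± 24.3 TPM, SD, n = 3) and lowest in WM115 clone 1.1 (0.457 ± 0.235 TPM, SD, n = 5).

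ID1 and ID3 kept close to each other across libraries. Over the 21 WM115 libraries the gene most like ID3 in log2(TPM + 1) among 15286 others was ID1 (r = 0.93, n = 21), followed by APLP1 (0.93), RPS13 (0.92), IFNGR2 (0.90) and RHOU (0.90). For ID1 the list after ID3 was RPLP0 (0.90), TFPI2 (0.90), RPL37 (0.90) and ADORA2B (0.90). In the 18 A375 libraries the r between ID1 and ID3 was again 0.93, while that of ID3 with RPS13 was 0.37 and that of ID1 with RPLP0 was -0.24. The libraries share their clones, and in WM115 the ribosomal share moves with the same groups, so these values describe the libraries. BAMBI had an r of 0.87 with ID3 in A375 and 0.50 in WM115, and ID4 had 0.61 and -0.20. The ratio of ID1 to ID3 lay between 1.17 and 2.63 in A375 and between 0.448 and 2.51 in WM115, lowest in clone 4.1 (0.448 to 0.639).

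**Figure D4:**
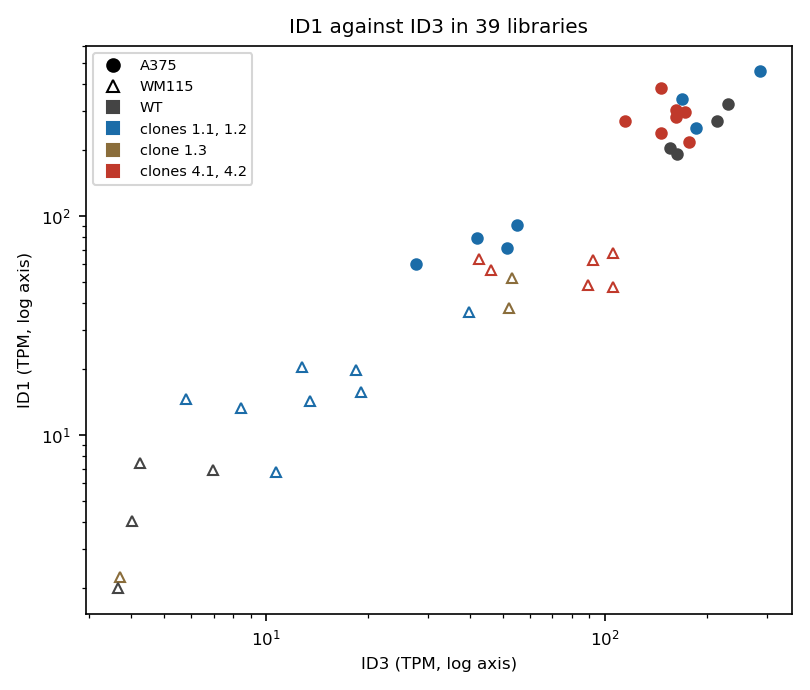
ID1 against ID3 in TPM, both on log axes, 1 point per library (circles A375, open triangles WM115, colours by clone). The points run along 1 band from WM115 WT at the lower left to A375 at the upper right, with A375 clone 1.2 and the WM115 clones 4.1 and 4.2 between them.

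The transcript table showed which forms carried these levels. A single transcript held 94.9% of the ID1 TPM in A375 and 94.5% in WM115, and a single one held 96.1% and 96.5% of ID3. The leading BMP4 transcript held 90.2% of that gene in A375 and 80.6% in WM115. BMP7 was spread more widely, with 38.1% and 36.6% in a transcript annotated as processed and not coding, and 34.1% and 30.7% in the leading coding one. ID4 and BMP2 have 1 transcript each in the table. These splits are the authors' estimates from short reads.

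A list of 49 further genes of the pathway held 34 that were tested in each line. Receptors and SMADs held no call in any clone in the main fit. In WM115 these were 9 receptors and co-receptors and 4 SMADs tested, and in A375 they were 8 and 5. Between the WT lines 1 of 8 receptors and co-receptors tested was called, higher in A375, where 9.55% of genes were. With a pseudocount of 0.1 in place of 1, BMPR1B in WM115 clone 1.1 (1.54, adjusted p = 0.024) and RGMA in A375 clone 1.1 (-2.10, adjusted p = 0.0358) were called. The calls fell mostly among the inhibitors, which held 13 of the 34 genes tested in WM115 and 11 of those in A375. This class holds secreted proteins that bind BMPs or related ligands outside the cell. It also holds membrane or intracellular ones such as CRIM1 and SMURF2. Median differences over the list stayed between 0.00 and 0.20 in WM115 clones and between -0.02 and 0.13 in A375 clones.

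In WM115 clone 4.1, 4 of the 34 were called, where 7.57% of genes were. ATOH8, a helix-loop-helix gene that answers to BMP, had 22.9, 13.7 and 26.5 TPM against 4.21 to 8.6 TPM in WT (1.59, SE 0.36, limma adjusted p = 0.00403). SMURF2, a ubiquitin ligase of the pathway, rose by 1.08 (SE 0.23, adjusted p = 0.00279) and CHRDL1, a chordin-like BMP binder, by 1.14 (SE 0.32, adjusted p = 0.0158). NBL1, a secreted BMP antagonist, fell by 1.07 (SE 0.38, adjusted p = 0.0489). Leaving out 1 library left 2 or 3 of these calls, and 2 without library 1, 2 or 3 of the clone or WT library 4, with ATOH8 called each time. In clone 4.2 none of the 34 was called by limma, and 8 had an unadjusted p under 0.05, as did 34.3% of all genes. Without the 2 libraries that stand apart BMP8B was called there (1.2, adjusted p = 0.000416), and without WT library 3 BMP8B (1.31, adjusted p = 0.0452) and SMURF2 (1.04, adjusted p = 0.00499). ATOH8 had 7.22, 2.23 and 8.89 TPM there and overlapped WT. MSX2, another target, was listed at 0 in all WM115 WT libraries and at 1.01, 0.534 and 0.870 TPM in clone 4.1, too low to be tested in that line.

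In WM115 clone 1.1, where BMP7 was lowest, 3 of the 34 were called, beside 4.88% of all genes. FSTL1, a secreted follistatin-like protein, fell by 2.09 (SE 0.23, adjusted p = 5.69e-06), with 6.45 to 9.88 TPM against 21 to 46.4 TPM in WT. CHRDL1 fell by 1.44 (SE 0.28, adjusted p = 0.00157), and FST, the activin and BMP binder follistatin, rose by 1.93 (SE 0.67, adjusted p = 0.0448). The FST call was lost when library 2, 3 or 4 of the clone or WT library 1, 2 or 4 was left out, and those of FSTL1 and CHRDL1 held each time. In clone 1.2, 8 of the 34 were called, where 7.61% of all genes were: 6 higher (4.49% of genes) and 2 lower (3.11%). GREM1, the BMP antagonist gremlin, had 288, 19.0 and 151 TPM there against 0.268 to 3.31 TPM in WT (5.70, SE 0.86, adjusted p = 0.000353). NOG, the BMP antagonist noggin, was listed at 0 in all WT libraries and at 9.93, 4.14 and 3.56 TPM in clone 1.2 (adjusted p = 0.000424), so no fold is given.

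NBL1 fell by 1.74 in clone 1.2 (SE 0.38, adjusted p = 0.00531) and BMP8B, a ligand, by 1.26 (SE 0.42, adjusted p = 0.0378), with BMP8B at 12.5, 15.0 and 1.55 TPM. CRIM1, a membrane protein that binds BMPs, rose by 1.23 (SE 0.42, adjusted p = 0.0411) and TWSG1, a chordin partner, by 1.16 (SE 0.18, adjusted p = 0.000475). The count of 8 fell to 2 without library 3 of this clone, to 3 without both libraries that stand apart and to 5 without WT library 3. Of the 8 melanocytic markers 4 were called lower in clone 1.2. SOX10 was among them (-2.44, SE 0.70, limma adjusted p = 0.0192), below WT in every library and lowest in library 3 at 9.56 TPM. The part of these markers in the values of the list was not tested. In clone 1.3 none of the 34 was called by limma, and 4 had an unadjusted p under 0.05, where 13% of all genes had. Without its library 3, CHRDL1 (1.08, adjusted p = 0.0427) and HEY1 (1.08, adjusted p = 0.0274) were called higher and NBL1 lower (-1.25, adjusted p = 0.0418), and the same 3 without both libraries that stand apart.

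**Figure D5:**
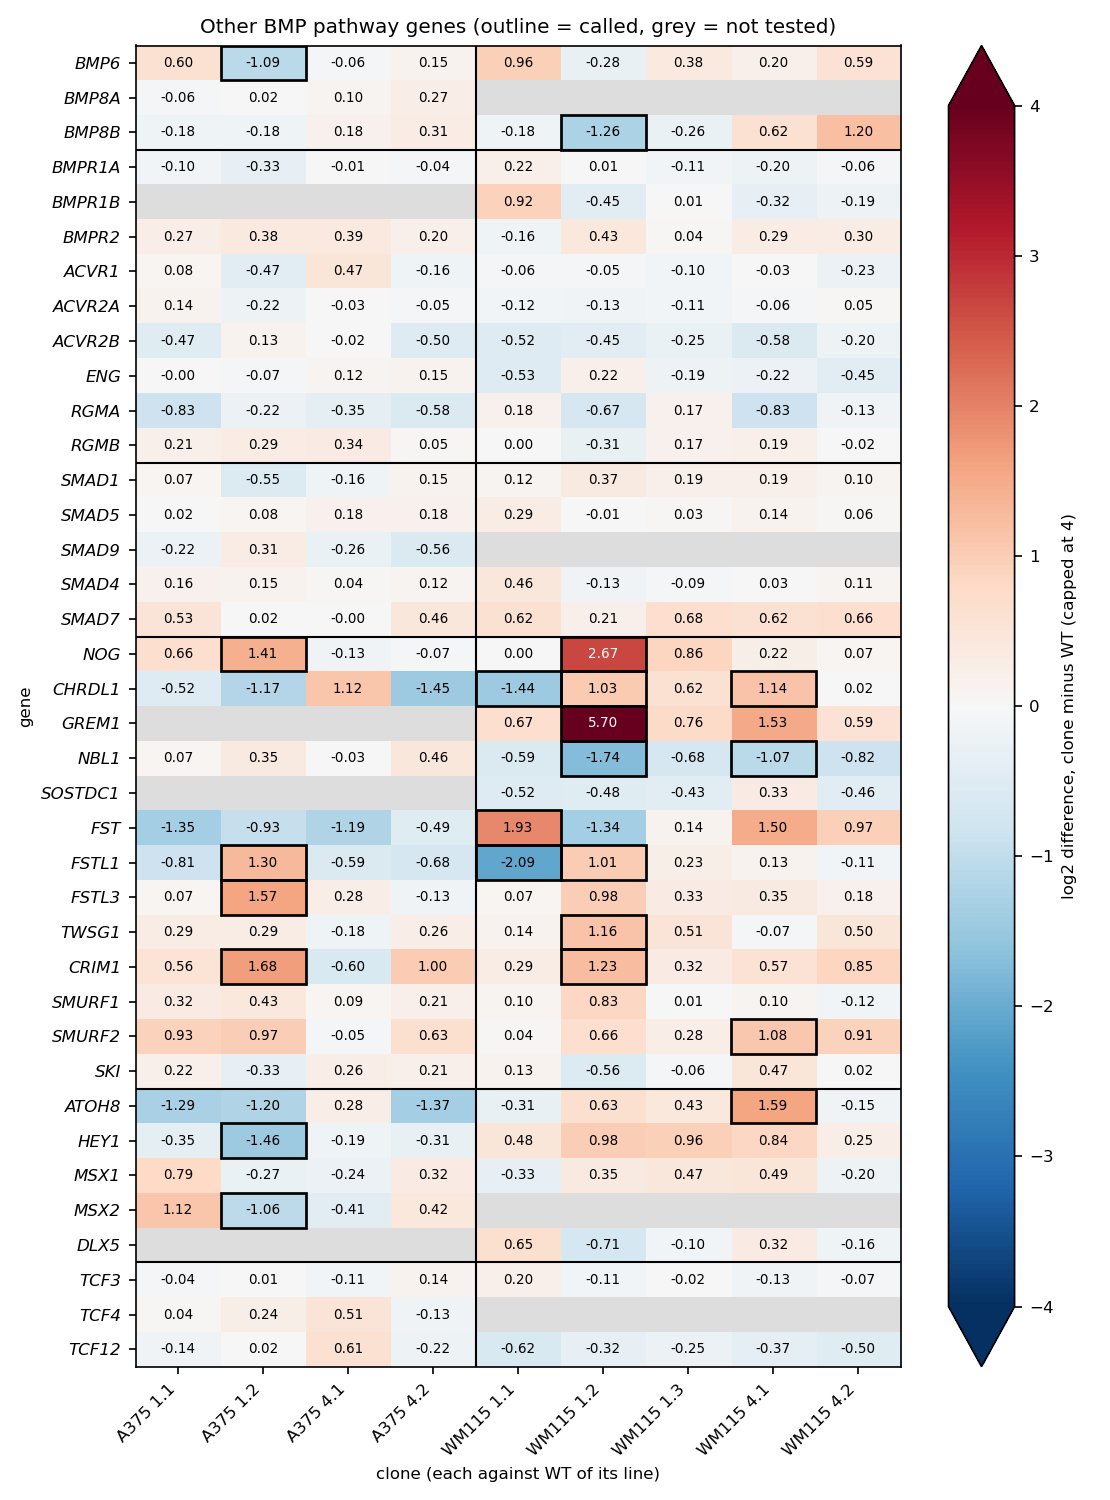
Log2 differences from WT of the 38 listed pathway genes tested in at least 1 line, by clone, on the log2(TPM + 1) scale, in order ligands, receptors and co-receptors, SMADs, inhibitors, targets and E proteins (outline called, grey not tested). Outlined cells lie mostly among the inhibitors, and the columns of WM115 clone 1.2 and A375 clone 1.2 hold the most of them.

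In A375 clone 1.2, 7 of the 34 listed genes were called, where 4.01% of all genes were. The targets HEY1 and MSX2 fell by 1.46 (SE 0.24, adjusted p = 0.000794) and 1.06 (SE 0.31, adjusted p = 0.0394), beside the lower ID genes, and the ligand BMP6 fell by 1.09 (SE 0.28, adjusted p = 0.0211). The inhibitors CRIM1 (1.68, adjusted p = 0.0123), FSTL3 (1.57, adjusted p = 0.00885) and NOG (1.41, adjusted p = 0.00288) rose, and the called FSTL1 had a difference of 1.3. NOG had 2.58, 0.534, 1.59 and 4.09 TPM there, above the highest WT library at 0.245 TPM. No listed gene was called by limma in A375 clones 1.1, 4.1 or 4.2, where 10, 7 and 5 had an unadjusted p under 0.05, beside 10.1%, 10.5% and 7.8% of all genes. In the paired fit of clone 4.1, with the replicate number as a block, CHRDL1 was called higher (1.12, adjusted p = 0.00113) and FST lower (-1.19, adjusted p = 0.0168). Without library 1 of clone 1.1, MSX2 (1.47, adjusted p = 0.0379) and SMURF2 (1.27, adjusted p = 0.0276) were called in that clone, and without WT library 2 FST was called in clone 4.1 (-1.60, adjusted p = 0.0435). Between the WT lines 10 of 32 were called, beside 22.7% of all genes, and 7 of them were higher in A375, beside 9.55%. TCF4, an E protein that ID proteins bind, had 5.53 to 10 TPM in A375 WT and at most 0.178 TPM in WM115 WT (2.98, SE 0.19, adjusted p = 1.53e-06). CHRDL1 was also higher in A375 WT (2.88, adjusted p = 0.00106) and NBL1 and FSTL1 lower (-2.19, adjusted p = 0.000389, and -1.83, adjusted p = 0.000357). MSX2 (3.83 to 6 TPM) was called higher against WM115 WT, where it is listed at 0, and FST was higher by 1.80 with overlapping ranges (adjusted p = 0.0267).

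Immediate early genes answer within minutes to serum and handling, and 7 of them were read in the same libraries. EGR1 had 86.8, 35.8 and 54.1 TPM in WM115 clone 4.2 against 12.1 to 27.9 TPM in WT and was called higher (1.68, SE 0.57, limma adjusted p = 0.0426), while ATF3 fell by 1.38 (adjusted p = 0.00598). In clone 4.1 none of the 7 was called, with EGR1 at 55.0, 47.8 and 42.3 TPM (1.48, adjusted p = 0.0632). Every library there was above WT for 4 of the 7 (EGR1, FOSB, IER2 and JUNB), beside 13.8% of all genes. JUNB (0.50, adjusted p = 0.0226) and IER2 (0.37, adjusted p = 0.0443) missed only the minimum size. FOS, ATF3 and DUSP1 overlapped WT in clone 4.1, and FOS did so in clone 4.2 as well. In A375 clone 1.2, where the ID genes were lower, EGR1 fell by 2 (SE 0.47, adjusted p = 0.0127) and FOSB by 1.17 (SE 0.26, adjusted p = 0.00988). FOS fell by 1.12 in WM115 clone 1.2 (adjusted p = 0.0233), where ID1 was called higher. None of the 7 was called in the remaining clones. EGR1 was at -0.90, 0.84 and -1.26 in A375 clones 1.1, 4.1 and 4.2, where ID1 and ID3 overlapped WT. IER2 was above WT in every library of A375 clone 4.1 (3.86% of genes) but under the minimum size (0.55, adjusted p = 0.0361). The part of these genes in the ID values was not tested.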

How the data were processed

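RNA of 39 libraries was poly-A selected and sequenced, per the labels' protocols. DRAGEN and GRCh38 are named in the submitters' processing notes, and the annotation release is not given in the sources used here. The authors deposited gene and transcript values in TPM, which sum to 999999.9 to 1000000.1 per library in the gene table, so read depth is unknown. That table has 60871 lines, of which 200 are identical repeats used once. Of its columns, 6 match no sample of the labels and were not used, and the transcript table has the same 6.

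Libraries were grouped by line and clone. The models of limma 3.58.1 (R 4.3.3, empirical Bayes with a variance trend) were fitted to log2(TPM + 1), each line on its own with 1 coefficient per group, over genes with at least 1 TPM in at least 3 libraries (16692 in A375, 16997 in WM115). WT lines were compared over their 8 libraries. Tests are two-sided, with p-values adjusted by Benjamini-Hochberg over all genes tested. The fit was tested on simulated data. The members, lists and rules were chosen with earlier results of these data known, and TATAAA was added to the motifs after the sequences were seen. Named are the 9 members, up to 6 called genes of the list per comparison by size, with FSTL1 in A375 clone 1.2, ATOH8 in clone 4.2 and MSX2 in clone 4.1 of WM115 and the immediate early genes, markers and genes called only under an alternative picked after their values were seen, the 5 genes most like ID3 and ID1, and SOX10.

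Alternatives were a pseudocount of 0.1, no filter, median-of-ratios scaling, a term for libraries with a mitochondrial share above 2.5% (A375) or 7.5% (WM115), the replicate number as a block, and leaving out each library. Leaving out the 2 WM115 libraries that stand apart was added after seeing the data. Same-numbered libraries of A375 clone 4.1 and WT deviated together (r 0.326 to 0.776 in 4 pairs), which no other comparison met. The main fit leaves them unpaired, and the fit with the replicate number as a block, which pairs them, is given beside it.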

Additional observations from a re-analysis of the deposited data

Results flagged for a closer look

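Among the 45 sets of a member in a group of 4 or 5 libraries, 6 held 1 library far from the others by Dixon's criterion, which chance does in about 1 of 20. In WM115 WT, BAMBI was low in library 4 (65.0 TPM) and BMP4 high in library 1 (2.02 TPM). In WM115 clone 1.1 BMP4 was high in library 4 (3.61 TPM). In A375 clone 1.2 BMP2 was high in library 1 (5.36 TPM) and BMP7 in library 3 (0.929 TPM), and in A375 clone 4.1 BMP4 was low in library 1 (4.49 TPM). None of these 6 values turns a direction given above. The groups of 3 libraries, among them WM115 clones 1.2 and 1.3, were not examined this way.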

How the results depend on the processing

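No called member changed direction under the alternatives run, and between the WT lines the same number of members, 5, was called in each. Some differences that were not called changed sign, such as those of ID3 (-0.09 to 0.29) and BMP4 (-0.12 to 0.70) in A375 clone 1.1. In WM115 clone 1.1 BMP7 and ID2 were called in all 15 settings. Genes called over all moved by over 1.5 times with a pseudocount of 0.1 (1447 from 829 in WM115 clone 1.1, 166 from 109 in A375 clone 4.1) and without the libraries that stand apart (673 from 1293 in WM115 clone 1.2, 415 from 105 in clone 1.3). With the replicate block the counts were 127 in WM115 clone 1.2, 1 in WM115 clone 1.3, 1 in A375 clone 1.1, 418 in A375 clone 1.2, 246 in A375 clone 4.1 and 15 in A375 clone 4.2. The block keeps only libraries whose number occurs in both groups, and outside A375 clone 4.1 the samples share only a number. In WM115 clone 1.1 it took ID1 to 1.67 (limma adjusted p = 0.00264) and ID3 to 1.42, past both thresholds. Leaving out 1 library gave 663 to 1034 genes called in WM115 clone 1.1, 501 to 1656 in clone 1.2, 73 to 321 in clone 1.3, 970 to 1501 in clone 4.1 and 784 to 1462 in clone 4.2. In A375 it gave 56 to 223 in clone 1.1, 510 to 761 in clone 1.2, 75 to 138 in clone 4.1 and 49 to 92 in clone 4.2, and 3433 to 3883 between the WT lines. The ID1 call of WM115 clone 1.2 was also lost at a pseudocount of 0.1 (adjusted p = 0.0513), with the mitochondrial term (0.0512), with the block (0.0849) and without the filter (0.0995), where that of ID4 was lost too (0.0838). Called genes of the pathway list went from 8 to 1 with the block and 3 without the libraries that stand apart in WM115 clone 1.2, from 4 to 0 with the block and 1 with the mitochondrial term in clone 4.1, from 7 to 3 with the block in A375 clone 1.2, and from 0 to 2 with scaling and 1 with the block in WM115 clone 4.2. The causes were not tested. Depth is unknown, so levels under about 1 TPM are uncertain to an extent that cannot be given.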
